A study of Mus musculus with 12 samples.

Results

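Combo and agoCD40 were compared to ask what IL-1R1 blockade did to liver RNA when it was added to a CD40 agonist. It rested on 6 of the series' 12 libraries, chosen by their labels: 3 labelled agoCD40, from mice given an agonistic antibody to CD40, and 3 labelled Combo, from mice given that antibody together with IL-1R1 blockade. All genes were taken, and 15465 of the 56748 genes in the count table had enough counts to be tested. All mice bore pancreatic ductal adenocarcinoma and were 12 weeks old, and the tissue was whole, flash-frozen liver. The other 6 libraries, 3 labelled isotype (described both as isotype control and as no treatment) and 3 labelled antiIL1R1 (the blockade alone), lent their spread to the fit and served as reference levels. The labels give no strain, sex, dose, interval after treatment, time of day or tumour model. The labels do not say that the 3 libraries of a group came from separate animals, and the tests then see only how far the libraries lie apart, which may in part be technical.

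CD40 is a receptor of the TNF-receptor family on B cells, dendritic cells and macrophages, and agonist antibodies to it activate these cells and can inflame the liver. IL-1R1 is the signalling receptor for IL-1α and IL-1β, and in liver it drives the acute-phase response of hepatocytes through NF-kB. Hepatocytes also answer to glucocorticoids, fasting signals and the circadian clock, which share many target genes, among them Per1, Tat and Igfbp1. Hepatic lipid synthesis runs under the SREBP factors: SREBP-1c, a product of Srebf1, drives fatty acid synthesis, and SREBP-2 drives cholesterol synthesis and is held back when sterols are plentiful.

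The promoters of 5 genes are printed because these genes led the 2 patterns described below: Noct and Per1 among the genes that were higher in Combo, and Hmgcs1, Cyp51 and Mvd among those that were lower. Each sequence is RefSeq's for GRCm38.p6 and runs 5′ to 3′ from 250 bases before to 50 bases after the annotated start. The count table was made on GRCm39, so these positions belong to the RefSeq build and not to the table. In Noct (chr3:51224197-51224496, plus strand) and Per1 (chr11:69098699-69098998, plus strand), capitals mark the cAMP half-site TGACG and the E-box CACGTG, the letters bound by clock factors, searched on both strands.

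Noct: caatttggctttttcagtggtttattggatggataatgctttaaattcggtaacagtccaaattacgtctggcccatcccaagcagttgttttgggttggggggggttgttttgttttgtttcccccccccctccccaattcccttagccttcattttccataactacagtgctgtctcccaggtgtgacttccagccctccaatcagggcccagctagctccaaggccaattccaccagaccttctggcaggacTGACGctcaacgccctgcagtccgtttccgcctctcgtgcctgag
Per1: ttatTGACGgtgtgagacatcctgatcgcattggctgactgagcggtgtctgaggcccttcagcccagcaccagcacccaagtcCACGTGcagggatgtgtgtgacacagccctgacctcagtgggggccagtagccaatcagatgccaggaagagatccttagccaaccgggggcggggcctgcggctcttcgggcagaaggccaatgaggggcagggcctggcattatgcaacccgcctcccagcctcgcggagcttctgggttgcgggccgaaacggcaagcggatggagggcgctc

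Noct held 1 match, a TGACG that began 6 bases after the start, and Per1 held 1 of each motif. Of 32851 mouse promoters of this length, 20.8% held TGACG and 7.15% held CACGTG. In Hmgcs1 (chr13:119690101-119690400, plus strand), Cyp51 (chr5:4104648-4104947, minus strand) and Mvd (chr8:122443373-122443672, minus strand), capitals mark the CCAAT box, which reads ATTGG on the other strand, and the sterol response element in the form TCACNCCAC.

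Hmgcs1: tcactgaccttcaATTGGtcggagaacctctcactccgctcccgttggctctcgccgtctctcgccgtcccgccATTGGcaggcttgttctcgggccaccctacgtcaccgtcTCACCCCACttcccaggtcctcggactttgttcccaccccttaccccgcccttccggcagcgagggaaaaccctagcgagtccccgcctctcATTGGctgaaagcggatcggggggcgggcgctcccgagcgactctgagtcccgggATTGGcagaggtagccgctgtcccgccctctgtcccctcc
Cyp51: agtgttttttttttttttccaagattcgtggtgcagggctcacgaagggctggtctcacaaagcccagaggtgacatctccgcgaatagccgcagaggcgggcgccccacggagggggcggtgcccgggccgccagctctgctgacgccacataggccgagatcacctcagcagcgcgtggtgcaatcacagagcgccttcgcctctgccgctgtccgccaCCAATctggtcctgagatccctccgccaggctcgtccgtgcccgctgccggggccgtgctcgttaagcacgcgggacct
Mvd: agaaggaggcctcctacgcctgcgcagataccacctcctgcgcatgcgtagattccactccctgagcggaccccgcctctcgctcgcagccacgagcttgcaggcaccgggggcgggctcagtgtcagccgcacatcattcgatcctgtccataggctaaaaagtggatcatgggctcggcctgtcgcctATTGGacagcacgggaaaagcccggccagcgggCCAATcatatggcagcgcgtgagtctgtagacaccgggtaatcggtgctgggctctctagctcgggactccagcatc

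Hmgcs1 held 4 CCAAT boxes and 1 sterol response element of that form, Cyp51 held 1 CCAAT box and Mvd held 2. CCAAT stood in 37.4% of all promoters and TCACNCCAC in 1.24%. The motifs marked differ between the 2 sets of promoters. Noct and Per1 also held CCAAT boxes, and Hmgcs1 and Cyp51 also held TGACG, all left unmarked. A match describes letters and shows no binding.

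With edgeR's quasi-likelihood test over all 12 libraries, 1 gene passed an adjusted p of 0.05 as higher in Combo (0.00647% of the genes tested) and 0 passed as lower (0%). The gene that passed was Noct, which encodes nocturnin, a rhythmically expressed protein of the deadenylase family that acts on NADPH. At an unadjusted p under 0.05 there were 960 genes (6.21%), of which 528 were higher (3.41%) and 432 lower (2.79%). DESeq2 on the same libraries, run without edgeR's filter on low counts, called 55 of 15328 genes higher and 22 lower. Without that filter edgeR itself called 112 of 27704 higher and 85 lower, so the number of calls depended on the filter. Any part of the tool alone cannot be told apart from it here. Across all genes the median log2 fold change was 0.01, and 51.4% lay above 0. All 3 Combo libraries lay above all 3 agoCD40 libraries for 1182 genes (7.64%) and below them for 1093 (7.07%), and the counts of each gene group below are to be read against these shares. The gene lists were chosen with earlier results of these data known, so their medians, ranks and counts describe the data and test nothing. Of the 100 genes with the smallest p, 70 were higher in Combo.

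**Figure D1:**
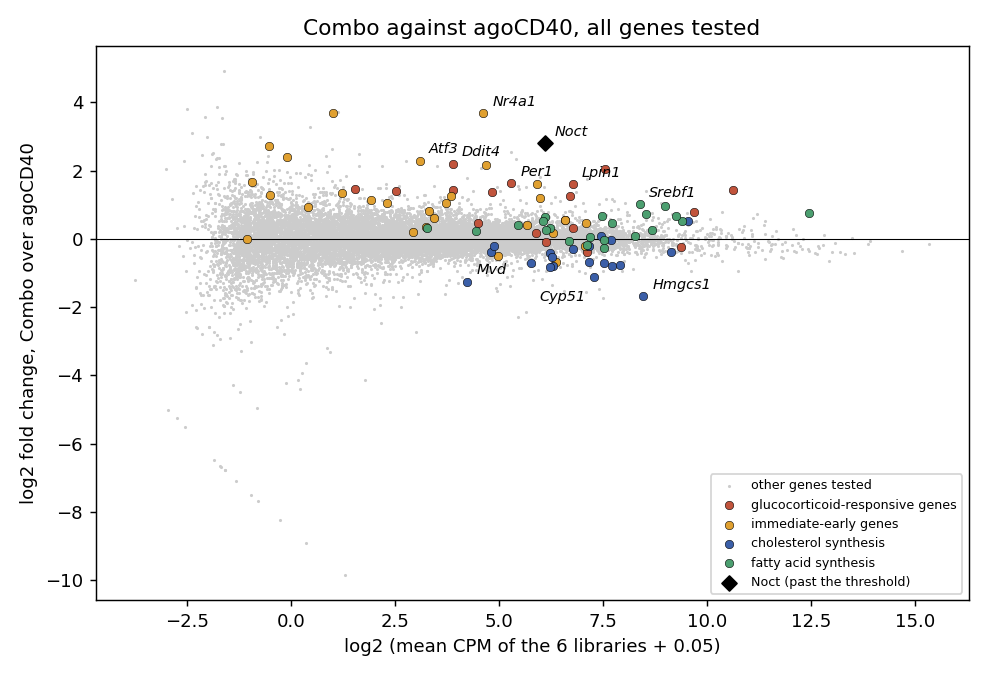
Log2 fold change of Combo over agoCD40 (vertical) against the log2 mean CPM of the 6 libraries (horizontal) for the 15465 genes tested, with 4 gene lists in colour and Noct as a diamond. Glucocorticoid-responsive and immediate-early genes lie mostly above 0, cholesterol synthesis genes below it and fatty acid synthesis genes mostly above it.

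Total counts ranged from 21673698 to 27118712 in the 6 libraries. All 20 mature hepatocyte markers were tested and summed to between 102300 and 123481 CPM, counts scaled to a common library size, in them. Of 27 markers of exocrine pancreas, the organ of the tumour, 18 had no count in any of the 6. That list summed to between 12.0 and 21.7 CPM in the 6 libraries, and 2 of its members, Cela1 and Cela2a, were tested. It does not show whether carcinoma cells were present. Markers shared by bile duct and carcinoma epithelium summed to 503 to 604 CPM in agoCD40 and 410 to 558 CPM in Combo. Of 17 tested, 12 lay below 0, 4 were lower without overlap (7.07% of all genes) and 0 higher. Transcripts encoded in mitochondria took 8.36% to 12.2% of the counts in agoCD40 and 7.64% to 9.89% in Combo, so the groups overlapped. With that share as a covariate 11 genes passed, Noct among them.

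Noct measured 20.9, 19.4 and 11.9 CPM in the agoCD40 libraries and 75.5, 148 and 141 CPM in the Combo libraries. The lowest Combo library was thus well above the highest agoCD40 library. Noct rose 7.00-fold, a log2 fold change of 2.81 ± 0.34 (SE), with an adjusted p of 0.0301. The isotype libraries measured 71.3, 151 and 96.03 CPM and the antiIL1R1 libraries 86.2, 136 and 119 CPM, so the agoCD40 libraries were the low group and the Combo libraries lay among the other 2. Against isotype, which shares the agoCD40 libraries with the comparison above, agoCD40 was lower by -2.61 on the log2 scale (adjusted p = 0.00467), and Combo differed from isotype by 0.20 (adjusted p = 0.866). The call did not hold without agoCD40 replicate 1 (adjusted p = 0.186), 2 (0.118) or 3 (0.145), without Combo replicate 2 (0.181) or 3 (0.0627), or without antiIL1R1 replicate 2 (0.0589) or 3 (0.0848), with the log2 fold change at 2.59 to 3.06 over every left-out library.

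**Figure D2:**
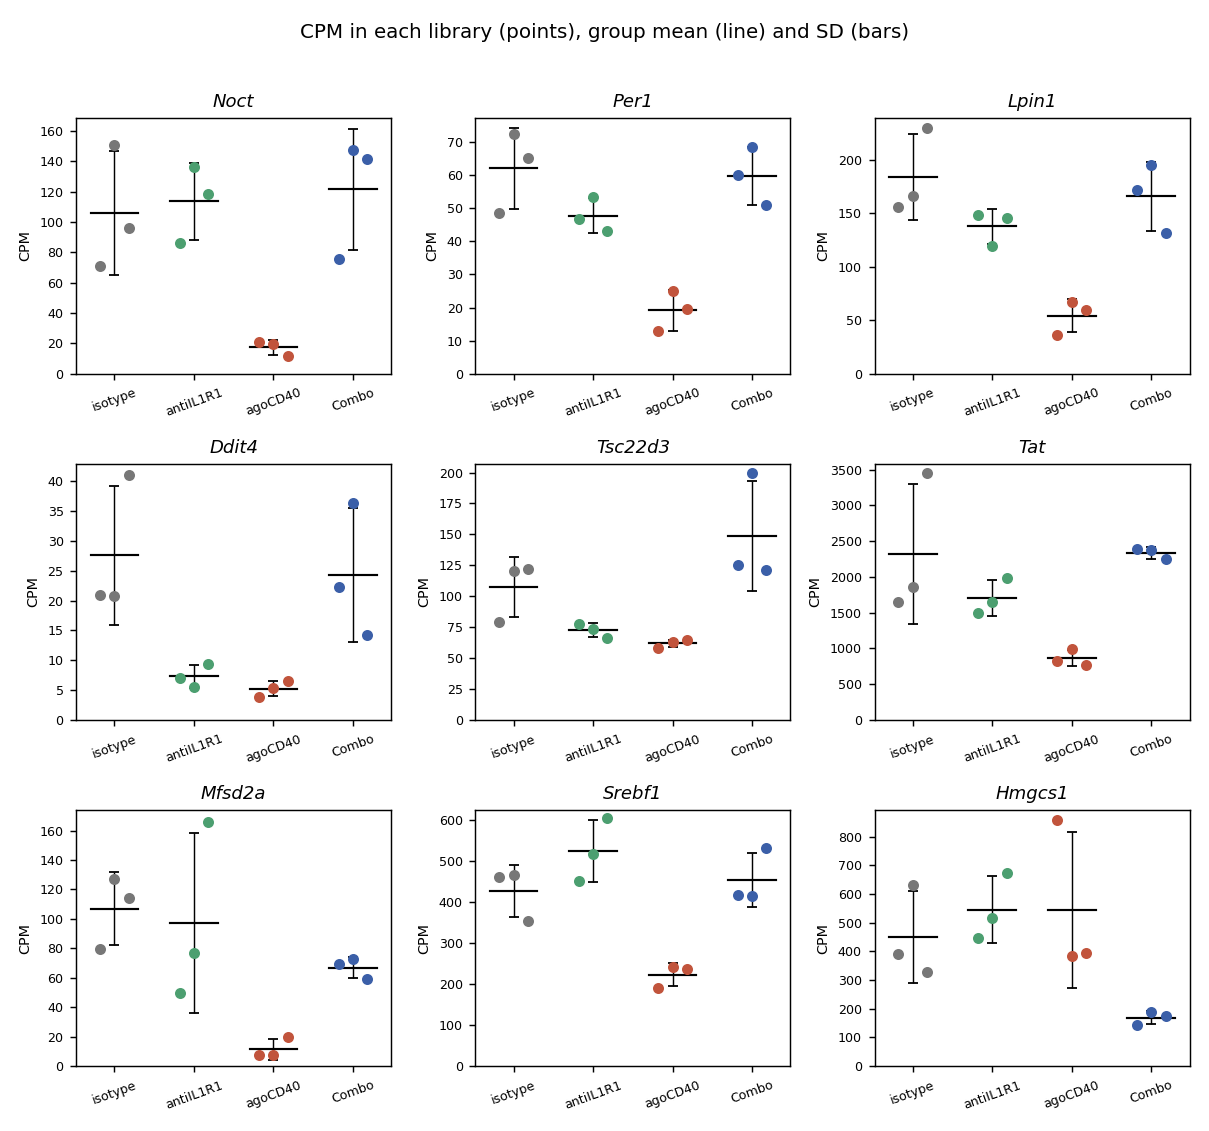
CPM of 9 genes in each library (points) with the group mean (line) and SD (bars, n = 3), on linear axes from 0. For the first 8 genes every Combo library lies above every agoCD40 library; for Hmgcs1 every Combo library lies below.

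Of 24 tested genes of the clock and its rhythmic output, 16 had a fold change above 0, and the list median was 0.17. All Combo libraries were above all agoCD40 libraries for 7 of them and below for 3. Per1, a repressor of the clock that is also a direct glucocorticoid target, measured 12.8, 24.99 and 19.7 CPM in agoCD40 and 60.02, 68.5 and 50.8 CPM in Combo. The 2 groups were separated by more than the spread of either, with a log2 fold change of 1.64 ± 0.23 (adjusted p = 0.0781). Without overlap but with smaller differences, Per2, its paralogue, measured 19.1, 18.9 and 24.7 CPM in agoCD40 and 30.2, 37.6 and 37.1 CPM in Combo, and Usp2, a rhythmic deubiquitinase, had a log2 fold change of 0.72 ± 0.24. The 3 genes that were lower in all Combo libraries were Bhlhe41, Nr1d1 and Clock. Nr1d1, the repressor REV-ERBα, measured 123, 116 and 138 CPM in agoCD40 and 88.9, 81.4 and 52.9 CPM in Combo, a log2 fold change of -0.75 ± 0.26 (adjusted p = 0.662). Bhlhe41, another repressor of the clock, stood at -0.98 ± 0.31 and Clock, an activator, at -0.54 ± 0.21, and on log2(TPM + 1) both were smaller, at -0.37 and -0.24.

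Other genes of mRNA deadenylation, the family in which Noct is placed, did not share its size of difference: the median of the 25 tested members was 0.03, and 4 were higher without overlap (Noct, Btg2, Tob2 and Pde12). Tob2, which recruits the CCR4-NOT deadenylase, measured 58.7, 73.03 and 55.7 CPM in agoCD40 and 97.3, 113 and 93.5 CPM in Combo, and Pde12, a mitochondrial deadenylase, had a log2 fold change of 0.44 ± 0.19.

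The glucocorticoid-responsive genes had the highest median of all 45 lists, 1.32, with 15 of 18 members above 0. In 10 of the 18 every Combo library was above every agoCD40 library, against 7.64% of all genes, and in 1 every Combo library was below. Because the lists were chosen with earlier results known, this rank and these counts are no independent support. No member passed edgeR's threshold. DESeq2 on the 12 libraries called 8, all higher, where it called 55 of 15328 genes higher in all. Summarised in each library as the median difference of its members from the agoCD40 mean, the list stood at -0.09, 0.10 and 0.05 in agoCD40 and at 1.21, 1.09 and 0.96 in Combo. The isotype libraries stood at 1.06, 1.05 and 1.74 and the antiIL1R1 libraries at 0.72, 0.41 and 0.87. The agoCD40 libraries were thus again the lowest group. The antiIL1R1 libraries lay between them and the Combo and isotype libraries, without overlap.

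Lpin1, a phosphatidate phosphatase of fasting liver, measured 36.6, 66.7 and 59.9 CPM in agoCD40 and 172, 195 and 131 CPM in Combo. Its log2 fold change was 1.61 ± 0.24 (adjusted p = 0.0814), and the groups did not overlap. Ddit4, which restrains mTORC1 under stress and glucocorticoids, measured 3.90, 5.38 and 6.44 CPM in agoCD40 and 22.2, 36.3 and 14.3 CPM in Combo, a log2 fold change of 2.21 ± 0.37 (adjusted p = 0.117). Even its lowest Combo library exceeded the highest agoCD40 library by more than the range of the agoCD40 group. Tsc22d3, the glucocorticoid-induced leucine zipper, measured 58.4, 62.6 and 64.4 CPM in agoCD40, within a narrow range, and 125, 200.01 and 121 CPM in Combo (log2 fold change 1.27 ± 0.21). Tat, the tyrosine aminotransferase long used as a marker of glucocorticoid action in liver, measured 819, 991 and 775 CPM in agoCD40 and 2389, 2378 and 2245 CPM in Combo. The Combo libraries were tightly grouped, at a log2 fold change of 1.44 ± 0.25 (adjusted p = 0.117). Cebpd, a C/EBP transcription factor, stood at 1.43 ± 0.26 (adjusted p = 0.128) and the kinase Sgk1 at 1.37 ± 0.31 (adjusted p = 0.262), both without overlap.

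Not every glucocorticoid target followed. Fkbp5, a co-chaperone of the glucocorticoid receptor, measured 17.2, 17.4 and 22.1 CPM in agoCD40 and 30.9, 17.02 and 30.8 CPM in Combo, so the groups overlapped, while isotype measured 58.2, 47.9 and 63.5 CPM. Against isotype, Fkbp5 was at -1.58 in agoCD40 (adjusted p = 0.00848) and at -1.11 in Combo (adjusted p = 0.0648). Klf9, a further target, was the member that was lower in all Combo libraries, at -0.38 ± 0.16. The receptor's own gene, Nr3c1, measured 69.4, 79.8 and 68.4 CPM in agoCD40 and 57.1, 73.9 and 72.3 CPM in Combo, with overlap and a log2 fold change of -0.10 ± 0.24, and its sign turned on the TPM scale. On that scale Nr3c1 stayed below the median of all genes. Among the 14 members with a RefSeq promoter, TGACG stood in 7 and the full palindromic glucocorticoid response element in 1, Sgk1. With a gene counted where any of its promoters held the letters, as here, TGACG stood in 23% of 27025 genes and that element in 3.

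Immediate-early genes, which respond within minutes to hours to many stimuli, had the second highest median, 1.06, with 24 of 28 tested members above 0. In 11 members every Combo library was above every agoCD40 library, and in 1, Klf10, below. On log2(TPM + 1) the median was 0.53, and without Combo replicate 2 it was 0.63. Atf3, a stress-induced repressor, measured 4.03, 1.51 and 3.13 CPM in agoCD40 and 10.95, 14.3 and 17.2 CPM in Combo, a log2 fold change of 2.29 ± 0.43 (adjusted p = 0.147). Both groups lay below the isotype libraries, which measured 52.6, 50.2 and 29.00 CPM. Gadd45g, a growth-arrest gene, measured 9.51, 9.36 and 9.28 CPM in agoCD40 and 22.4, 74.2 and 30.7 CPM in Combo (log2 fold change 2.18 ± 0.42). Nr4a1, an orphan nuclear receptor, measured 4.16, 2.51 and 3.98 CPM in agoCD40 and 8.97, 82.97 and 45.99 CPM in Combo. Combo replicate 1 was far below the other 2 Combo libraries, which shows in the wide error of its log2 fold change, 3.70 ± 0.80 (adjusted p = 0.206). Fosb had the same order of libraries, 0.548, 6.13 and 4.38 CPM in Combo against 0.255, 0.221 and 0.368 CPM in agoCD40. TGACG stood in 12 of the 22 immediate-early genes with a RefSeq promoter. It also stood in 44.4% of clock genes, 40% of cholesterol synthesis genes and 17.6% of fatty acid synthesis genes with one. These letters were thus not particular to the immediate-early or glucocorticoid-responsive genes.

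Gluconeogenesis, the making of glucose during fasting, had a median of 0.42 over 14 members, 11 of them above 0, 6 higher without overlap and 1, Mdh1, lower. Igfbp1, an insulin- and glucocorticoid-sensitive binding protein of IGF, measured 62.5, 92.1 and 64.9 CPM in agoCD40 and 225, 461 and 229.6 CPM in Combo, a log2 fold change of 2.06 ± 0.41 (adjusted p = 0.179). Pck1, which encodes PEPCK, measured 1633, 1578 and 2145 CPM in agoCD40 and 3291, 2669.9 and 2976 CPM in Combo, again without overlap, at 0.74 ± 0.20 (adjusted p = 0.482). For G6pc, the glucose-6-phosphatase, the groups overlapped, since Combo measured 165, 889.7 and 577 CPM and agoCD40 317, 188 and 110.3 CPM. Irs2, the insulin receptor substrate, had the same low Combo replicate 1, at 21.8, 131 and 71.03 CPM against 21.1, 26.6 and 30.3 CPM.

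Amino acid catabolism and the urea cycle had a median of 0.24 over 25 members. Of these, 19 lay above 0, 11 were higher in Combo without overlap and 1, Oat, was lower. Apart from Tat, the members with the smallest p were Slc38a2, Asl and Got1. Slc38a2, an amino acid transporter, measured 162, 127 and 124 CPM in agoCD40 and 211, 396 and 280.3 CPM in Combo, a log2 fold change of 1.10 ± 0.23 (adjusted p = 0.179). Asl, the argininosuccinate lyase of the urea cycle, measured 274, 273 and 356 CPM in agoCD40 and 453, 413 and 447 CPM in Combo (log2 fold change 0.54 ± 0.19). Got1, an aspartate aminotransferase, reached 405, 291 and 184 CPM in Combo against 107, 104 and 179.7 CPM in agoCD40, so Combo replicate 3 was barely above agoCD40 replicate 3. Oat, an ornithine aminotransferase of the hepatocytes around the central vein, was lower in every Combo library, at -0.70 ± 0.25.

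Cholesterol synthesis was the list with the lowest median, -0.61, and 18 of its 20 members lay below 0. In 11 of them every Combo library was below every agoCD40 library, against 7.07% of all genes, and in 0 was it above. None passed edgeR's threshold, and 14 of the 20 had an unadjusted p under 0.05, all lower, against 2.79% of all genes. DESeq2 on the 12 libraries called 4, all lower, where it called 22 of 15328 genes lower in all. On log2(TPM + 1) the median was -0.39. In each library the list stood at -0.65, -0.46 and -0.51 in Combo, 0.34, -0.06 and -0.29 in agoCD40, -0.10, -0.04 and -0.13 in isotype and 0.21, -0.01 and 0.27 in antiIL1R1. Here the Combo libraries were the group that stood apart, below all 9 others.

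Hmgcs1, the synthase that makes HMG-CoA, measured 857, 383 and 393 CPM in agoCD40 and 144, 189.8 and 174 CPM in Combo, a log2 fold change of -1.68 ± 0.33 (adjusted p = 0.158). Although agoCD40 replicate 1 was far above its group, all 9 libraries outside Combo exceeded every Combo library. Mvd, the mevalonate diphosphate decarboxylase, measured 36.2, 17.1 and 26.5 CPM in agoCD40 and 8.47, 11.5 and 13.6 CPM in Combo (-1.25 on the log2 scale, adjusted p = 0.353). Cyp51, which demethylates lanosterol, measured 299.9, 191 and 154 CPM in agoCD40 and 69.03, 105 and 121 CPM in Combo (-1.13, adjusted p = 0.304). Fdft1, the squalene synthase, measured 225, 146 and 165 CPM in agoCD40 and 109.7, 102 and 121 CPM in Combo (-0.68, adjusted p = 0.363). All 3 were without overlap, and in each agoCD40 replicate 1 was the highest library of its group.

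Genes of sterol regulation and uptake did not share the direction of the enzymes: their median was 0.17, with 15 of 19 above 0. Srebf2, the gene of SREBP-2, measured 65.5, 72.1 and 59.2 CPM in agoCD40 and 63.01, 60.7 and 60.8 CPM in Combo, with overlap, and the sign of its difference turned on the TPM scale. On that scale Srebf2 stayed below the median of all genes. Insig2, which retains SREBP precursors in the endoplasmic reticulum, was the 1 member that was lower without overlap, at 116, 87.5 and 103 CPM in agoCD40 and 72.6, 73.3 and 63.9 CPM in Combo (log2 fold change -0.55 ± 0.17, and -0.23 on log2(TPM + 1)). Of the 20 cholesterol synthesis genes 15 had a RefSeq promoter. CCAAT stood in 14 of these 15 and TCACNCCAC in 1, Hmgcs1, whose promoter is printed above, beside 41.1% and 1.44% of all genes. CCAAT was also common in lists with a median above 0. It stood in 72.2% of clock genes, 70.6% of fatty acid synthesis genes, 64.3% of glucocorticoid-responsive genes and 50% of immediate-early genes with a promoter.

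Fatty acid synthesis lay on the other side of 0, with a median of 0.37, 18 of 22 tested members above 0, 5 higher without overlap (Srebf1, Fasn, Dgat2, Scd1 and Dgat1) and 0 lower. Srebf1 measured 190.1, 243 and 238 CPM in agoCD40 and 417, 415 and 532 CPM in Combo. The Combo level was about that of isotype, 461, 468 and 355 CPM, and the log2 fold change over agoCD40 was 1.02 ± 0.18 (adjusted p = 0.121). Fasn, the fatty acid synthase, measured 379, 395 and 269 CPM in agoCD40 and 508, 889.9 and 632 CPM in Combo, a log2 fold change of 0.96 ± 0.21 (adjusted p = 0.201). Dgat2, which completes triglyceride synthesis, stood at 0.51 ± 0.18 without overlap, and Elovl6, an elongase, at 0.65 ± 0.26 with overlap and at 0.31 without Combo replicate 2. Scd1, the stearoyl-CoA desaturase, measured 3689, 5093 and 3781 CPM in agoCD40 and 7933, 8113 and 5112 CPM in Combo. Its lowest Combo library was only just above the highest agoCD40 library.

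**Figure D3:**
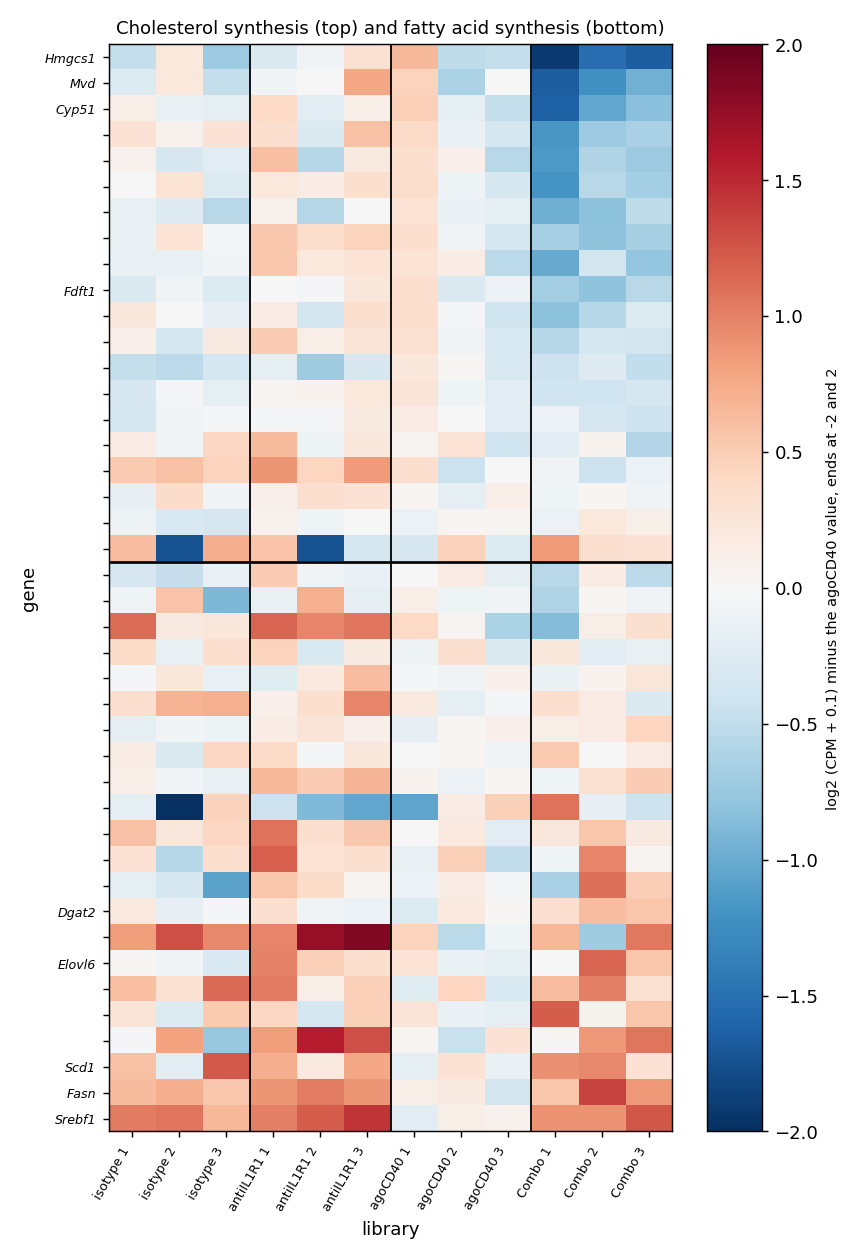
Level of each cholesterol synthesis gene (above the line) and fatty acid synthesis gene (below it) in the 12 libraries, with genes described in the text labelled, as log2(CPM + 0.1) minus the agoCD40 value of that gene; the colour scale ends at -2 and 2. The 3 Combo columns are blue for most of the upper rows and red for Fasn, Scd1 and Srebf1 at the bottom, where isotype and antiIL1R1 are mostly red as well.

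Beyond these groups, 4 genes of other pathways were among the 12 highest by p. Slc25a51, the mitochondrial carrier of NAD+, measured 48.05, 48.4 and 51.8 CPM in agoCD40 and 90.1, 119 and 99.6 CPM in Combo, a log2 fold change of 1.06 ± 0.17 (adjusted p = 0.11). Mfsd2a, a lysophosphatidylcholine transporter induced by fasting, measured 7.22, 7.56 and 19.8 CPM in agoCD40 and 69.1, 72.7 and 59.02 CPM in Combo (log2 fold change 2.54 ± 0.46, adjusted p = 0.128). Ppp1r10, a nuclear subunit of protein phosphatase 1, stood at 1.55 ± 0.26 (adjusted p = 0.117). Unlike the others it measured above isotype in all Combo libraries, 44.9, 75.5 and 76.00 CPM against 23.7, 43.00 and 38.8 CPM. Tnfrsf1b, which encodes TNF receptor 2, measured 18.9, 30.04 and 22.9 CPM in agoCD40 and 59.8, 83.2 and 56.1 CPM in Combo, a log2 fold change of 1.47 ± 0.26 (adjusted p = 0.125).

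On the lower side Osgin1, an oxidative-stress response gene, had the smallest p, at 319.5, 289.8 and 237 CPM in agoCD40 and 107, 46.6 and 99.02 CPM in Combo (log2 fold change -1.74 ± 0.32, adjusted p = 0.147). The isotype libraries, 164, 137 and 88.1 CPM, lay between the 2 groups or within Combo. Irf1, an interferon-induced transcription factor, measured 35.1, 27.6 and 42.2 CPM in agoCD40 and 20.4, 14.8 and 19.6 CPM in Combo, a log2 fold change of -0.94 ± 0.18 (adjusted p = 0.158). Isotype was at 21.98, 22.8 and 18.1 CPM, below every agoCD40 library. The antiIL1R1 group was at 0.40 on the log2 scale relative to isotype. Rasl11b, a small GTPase, stood at -1.46 and the zinc-finger gene Zfp763 at -1.67, both under 4 CPM in the 6 libraries. Hinfp, a regulator of histone genes, stood at -0.79, Arhgap26, a GTPase-activating protein, at -0.69 and Cir1, a corepressor, at -0.61 on the log2 scale, each without overlap. On log2(TPM + 1) Hinfp was at only -0.093 and Arhgap26 at -0.29. Ugt2b38, at -1.31 and without agoCD40 replicate 1 at -0.72, belongs to a family of near-identical transferases, and how its reads were shared among them is not known.

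The mRNA of the targeted receptors does not check the treatments, since the antibodies act on the proteins. Cd40 was at the limit of detection, with 1.10, 0.70 and 1.66 CPM in agoCD40 and 0.884, 0.481 and 1.01 CPM in Combo. Il1r1 measured 43.5, 29.5 and 44.9 CPM in agoCD40 and 30.1, 34.2 and 31.4 CPM in Combo, overlapping, and 66.8, 81.6 and 53.7 CPM in isotype, above both. Among the ligands, Il1a measured 3.18, 2.51 and 2.21 CPM in agoCD40 and 3.66, 5.41 and 2.66 CPM in Combo, and Il1b 3.48, 2.43 and 4.57 CPM and 3.58, 11.6 and 2.32 CPM. Combo replicate 2 was high for Il1b, and without it the log2 fold change went from 0.74 to -0.24. Il1rn, the receptor antagonist, measured 3.27, 3.94 and 6.11 CPM in agoCD40 and 9.48, 3.12 and 2.74 CPM in Combo. Only Combo replicate 1 was above the agoCD40 range for Il1rn. The 22 tested IL-1 family members and receptors had a median of 0.08, with 1 higher (Irak3) and 2 lower (Casp4 and Il18) without overlap. Il18, a cytokine of the family, measured 11.3, 9.70 and 13.4 CPM in agoCD40 and 7.37, 8.09 and 7.80 CPM in Combo (log2 fold change -0.57 ± 0.20).

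NF-kB targets of IL-1 had a median of -0.09, with 14 of 19 tested members below 0, 1 higher and 2 lower without overlap. The median turned to 0.060 on log2(TPM + 1), where that of all genes was 0.094. Cxcl1, a neutrophil chemokine, measured 12.7, 8.52 and 14.8 CPM in agoCD40 and 2.86, 3.72 and 8.64 CPM in Combo, a log2 fold change of -1.24 ± 0.44 (adjusted p = 0.691). The groups touched, since Combo replicate 3 was just above agoCD40 replicate 2. Ccl2, the monocyte chemokine, was lower in all Combo libraries but below 1 CPM in all 6, at -1.69. Tnfaip2, a TNF-induced gene, measured 25.3, 30.5 and 24.2 CPM in agoCD40 and 18.6, 14.98 and 19.8 CPM in Combo (log2 fold change -0.58 ± 0.18). Vcam1, the adhesion molecule, lay on the other side of 0, at 0.88 ± 0.37 without overlap and at 0.57 without Combo replicate 1. Of the CD40 and TNF-receptor signalling genes, 25 were tested with a median of 0.03, and Tnfrsf1b was the member with the smallest p.

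Acute-phase genes, which hepatocytes secrete in inflammation, had a median of -0.20, and 23 of 34 lay below 0, 6 of them without overlap, against 1, Hamp, above without overlap. Cp, ceruloplasmin, measured 797, 608 and 702 CPM in agoCD40 and 507, 505 and 589 CPM in Combo, a log2 fold change of -0.40 ± 0.16. Fgb, a fibrinogen chain, measured 3774, 3022 and 3162 CPM in agoCD40 and 2673, 2556 and 2589.6 CPM in Combo (-0.35 on the log2 scale, and -0.21 on log2(TPM + 1)). Both differences were small but without overlap, with adjusted p-values of 0.763 and 0.794. Serpina3k at -0.66 and Orm2 at -0.86 belong to families of near-identical copies, so their split is uncertain. Orm2 was at -0.37 without agoCD40 replicate 3 and Serpina3k at -0.44 without agoCD40 replicate 1. Downstream of IL-6, the kinase Pim1 measured 53.99, 40.2 and 43.7 CPM in agoCD40 and 13.98, 9.49 and 24.4 CPM in Combo, a log2 fold change of -1.52 ± 0.42 (adjusted p = 0.482). Socs3, the feedback inhibitor of that pathway, stood at -0.61 ± 0.25, also without overlap. The IL-6 list as a whole had a median of -0.10 over 18 members, which turned to 0.026 on log2(TPM + 1). That value was still below the median of all genes on the same scale, given above.

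Complement and coagulation genes had a median of -0.13, with 23 of 36 below 0 and 7 lower without overlap. Of the 36, 1 was higher without overlap.

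Type I interferon response genes had a median of -0.32, with 20 of 26 below 0, 4 of them without overlap (Ifih1, Isg15, Mx2 and Xaf1) and 0 above without overlap. Ifit3 measured 13.4, 7.08 and 17.7 CPM in agoCD40 and 7.497, 8.05 and 7.38 CPM in Combo, and Isg15 10.8, 7.56 and 14.7 CPM and 7.20, 7.05 and 5.61 CPM, both encoding interferon-induced antiviral proteins. In each, agoCD40 replicate 2 was the lowest of its group and agoCD40 replicate 3 the highest. The list median was -0.54 without agoCD40 replicate 2, -0.19 without agoCD40 replicate 3 and -0.14 on log2(TPM + 1), so its size depended on which agoCD40 libraries were used. Interferon-gamma response genes had a median of -0.08 over 22 members, of which Irf1, above, and Iigp1, a GTPase, at 331, 246 and 315 CPM in agoCD40 and 215, 215 and 225 CPM in Combo, had the smallest p. The sign of that median did not hold, at 0.089 without Combo replicate 3, 0.053 without agoCD40 replicate 3 and 0.077 on log2(TPM + 1). The last of these was below the median of all genes on that scale.

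In whole liver, fewer cells of a type and less RNA per cell cannot be told apart, which touches every list of cell markers that follows. Liver endothelium markers lay above 0 in 29 of 30 members, with a median of 0.50, but 2 were without overlap, Emcn and Wnt9b, both higher. The list stood at -0.62, 0.81 and -0.14 in agoCD40 and 0.98, 0.89 and -0.09 in Combo, so agoCD40 replicate 1 was low, Combo replicates 1 and 2 were high and the groups overlapped. Its median was 0.32 without agoCD40 replicate 1, 0.33 without Combo replicate 1 and 1.04 without agoCD40 replicate 2. Esam, an endothelial junction protein, measured 4.37, 7.30 and 6.26 CPM in agoCD40 and 16.4, 10.49 and 7.21 CPM in Combo, and Emcn, endomucin, stood at 1.37 ± 0.51, and at 2.09 without agoCD40 replicate 2.

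Stellate cell and matrix markers had the same median, 0.50, with 30 of 32 above 0 and 1, Acta2, higher without overlap. They stood at -0.34, 0.25 and 0.03 in agoCD40 and 1.18, 0.47 and -0.26 in Combo, and their median was 0.09 without Combo replicate 1 and 0.78 without Combo replicate 3. Col5a1, a collagen chain, measured 9.51, 13.5 and 11.9 CPM in agoCD40 and 32.5, 19.9 and 10.1 CPM in Combo. Acta2, smooth muscle actin, measured 2.25, 3.50 and 3.42 CPM in agoCD40 and 13.5, 4.20 and 3.75 CPM in Combo. In both, Combo replicate 1 stood far above the other 5 libraries, and its part in other results was measured only by leaving it out.

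Kupffer cell markers had a median of 0.47, with 15 of 20 above 0, 5 higher without overlap and 1 lower. The 3 C1q genes and Hmox1 were among the 5. Without Combo replicate 1 the median was 0.28. C1qc and C1qb, subunits of complement C1q made by macrophages, stood at 0.81 ± 0.27 and 0.66 ± 0.26, both without overlap. Cd163, a scavenger receptor of these cells, was lower in all Combo libraries at 1.61, 4.35 and 1.40 CPM in agoCD40 and 1.31, 1.161 and 1.22 CPM in Combo. Monocyte and recruited macrophage markers had a median of 0.39, with 21 of 25 above 0 and 5 higher without overlap (Gpnmb, Itgax, Ly6c2, Lyz2 and Ms4a6c). Lyz2, the lysozyme of myeloid cells, measured 102, 111 and 134 CPM in agoCD40 and 159, 178 and 146 CPM in Combo. Spp1, osteopontin, which bile duct cells also make, lay below 0, at -0.92 ± 0.39.

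MHC class II genes had a median of 0.44, with 10 of 13 above 0 and 0 without overlap in either direction. Cd74, the invariant chain, measured 186, 148 and 268 CPM in agoCD40 and 396, 397 and 239 CPM in Combo, and H2-Ab1 75.1, 54.3 and 104 CPM and 147, 132 and 83.04 CPM. For both, Combo replicate 3 lay within the agoCD40 range. The list median was 0.18 without agoCD40 replicate 2 and 0.22 without Combo replicate 1. B cell and plasma cell markers (29 tested, median -0.21), T cell markers (21 tested, 0.09) and neutrophil markers (18 tested, -0.09) had medians that turned sign under other scalings or left-out libraries. Cd8a, of cytotoxic T cells, measured 0.722, 0.59 and 0.81 CPM in agoCD40 and 1.94, 1.56 and 0.759 CPM in Combo, and Cd4, of helper T cells, 1.74, 1.47 and 2.03 CPM and 1.35, 1.32 and 0.97 CPM, all near the limit of what these depths resolve.

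**Figure D4:**
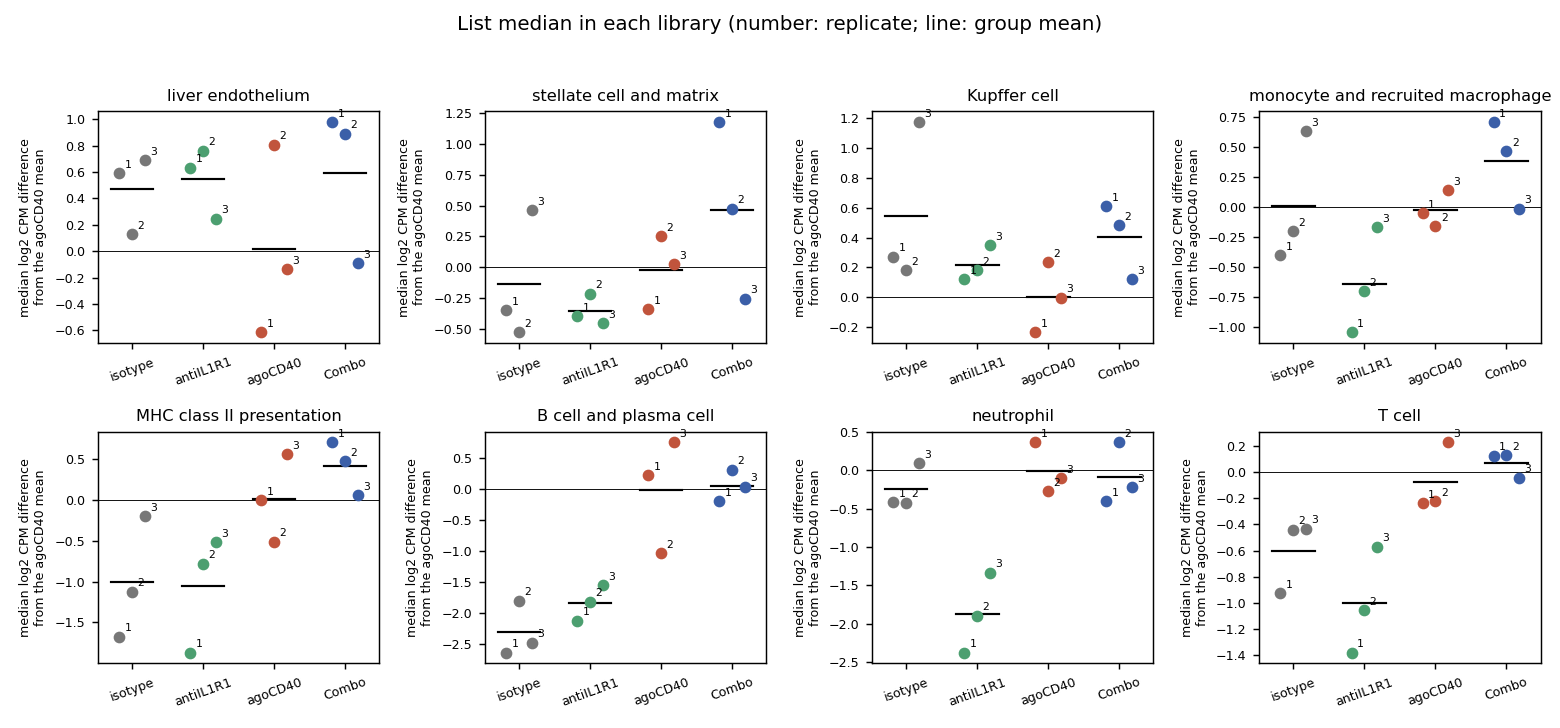
Median difference from the agoCD40 mean on the log2 CPM scale for 8 marker lists (one panel each), with 1 point per library, its replicate number and a line at the group mean. In the endothelium and stellate panels Combo replicate 3 lies within the agoCD40 range while Combo replicate 1 is the highest point.

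Whether blockade differed with and without the agonist was asked by the interaction, the difference of Combo from agoCD40 minus that of antiIL1R1 from isotype. These 2 differences share no library. One gene passed edgeR's quasi-likelihood test (0.00647% of the genes tested), and 1161 had an unadjusted p under 0.05 (7.51%). The gene was Ddit4, described above among the glucocorticoid targets. Its isotype libraries measured 20.9, 20.8 and 41.1 CPM and its antiIL1R1 libraries 7.10, 5.51 and 9.29 CPM, so it was lower with blockade alone (-1.92 on the log2 scale) and higher with blockade added to the agonist (2.21). The interaction was 4.13 ± 0.52 (SE, log2 scale; adjusted p = 0.0422). Of the 12 left-out libraries 4 Combo or isotype ones kept this call, and without any of the other 8 it did not hold, at adjusted p-values up to 0.237. It did not hold either without isotype replicate 2 and antiIL1R1 replicate 2 together (adjusted p = 0.224, interaction 4.12), the libraries with 14.1% and 14.8% mitochondrial counts. With the mitochondrial percent as a covariate Ddit4 still passed (interaction 3.82, adjusted p = 0.0390).

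For most leading genes the difference without the agonist was small or of the other sign. Tnfrsf1b measured 43.6, 50.1 and 81.1 CPM in isotype and 37.4, 30.5 and 26.4 CPM in antiIL1R1, and its interaction was 2.36 ± 0.36 (adjusted p = 0.104). Gadd45g stood at -1.47 without the agonist and 2.18 with it (interaction 3.65 ± 0.59, adjusted p = 0.104). Per1 stood at -0.38 and 1.64 (adjusted p of the interaction 0.104), Tsc22d3 at -0.56 and 1.27 (0.104), and Tat at -0.44 and 1.44 (0.126). Noct, at 0.10 and 2.81, gave an interaction of 2.71 ± 0.46 (adjusted p = 0.113). Hmgcs1 gave -1.96 ± 0.45 (adjusted p = 0.286) from 0.28 without and -1.68 with the agonist. For Srebf1 the interaction was 0.73 ± 0.25 (adjusted p = 0.554), with a difference of 0.29 without the agonist. In this fit none of these but Ddit4 passed the threshold. With DESeq2 on the 12 libraries all of them but Srebf1 passed, with adjusted p-values from 8.79e-12 for Ddit4 to 0.00476 for Hmgcs1, and the same 8 passed in edgeR without a filter on low counts. Whether their interactions were called thus depended on the filter. DESeq2 was run without that filter as well, so any part of the tool alone cannot be told apart.

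The next values share isotype as their reference. Like Noct above, some of the leading higher genes, Lpin1, Mfsd2a and Cebpd, passed as lower in agoCD40 and did not pass in Combo. They do not stand for all leading higher genes, whose other tests against isotype are not given here. Ppp1r10, above, measured higher than isotype in all Combo libraries. Lpin1 was at -1.76 in agoCD40 (adjusted p = 0.0063) and -0.15 in Combo (adjusted p = 0.861) relative to isotype. Mfsd2a was at -3.21 (adjusted p = 0.00759) and -0.68 (adjusted p = 0.585), and Cebpd at -1.89 (adjusted p = 0.0063) and -0.46 (adjusted p = 0.514). The cholesterol synthesis gene Hmgcs1 had the opposite layout, 0.28 in agoCD40 (adjusted p = 0.882) and -1.41 in Combo (adjusted p = 0.1). A p above the threshold does not show that Combo and isotype were alike.

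**Figure D5:**
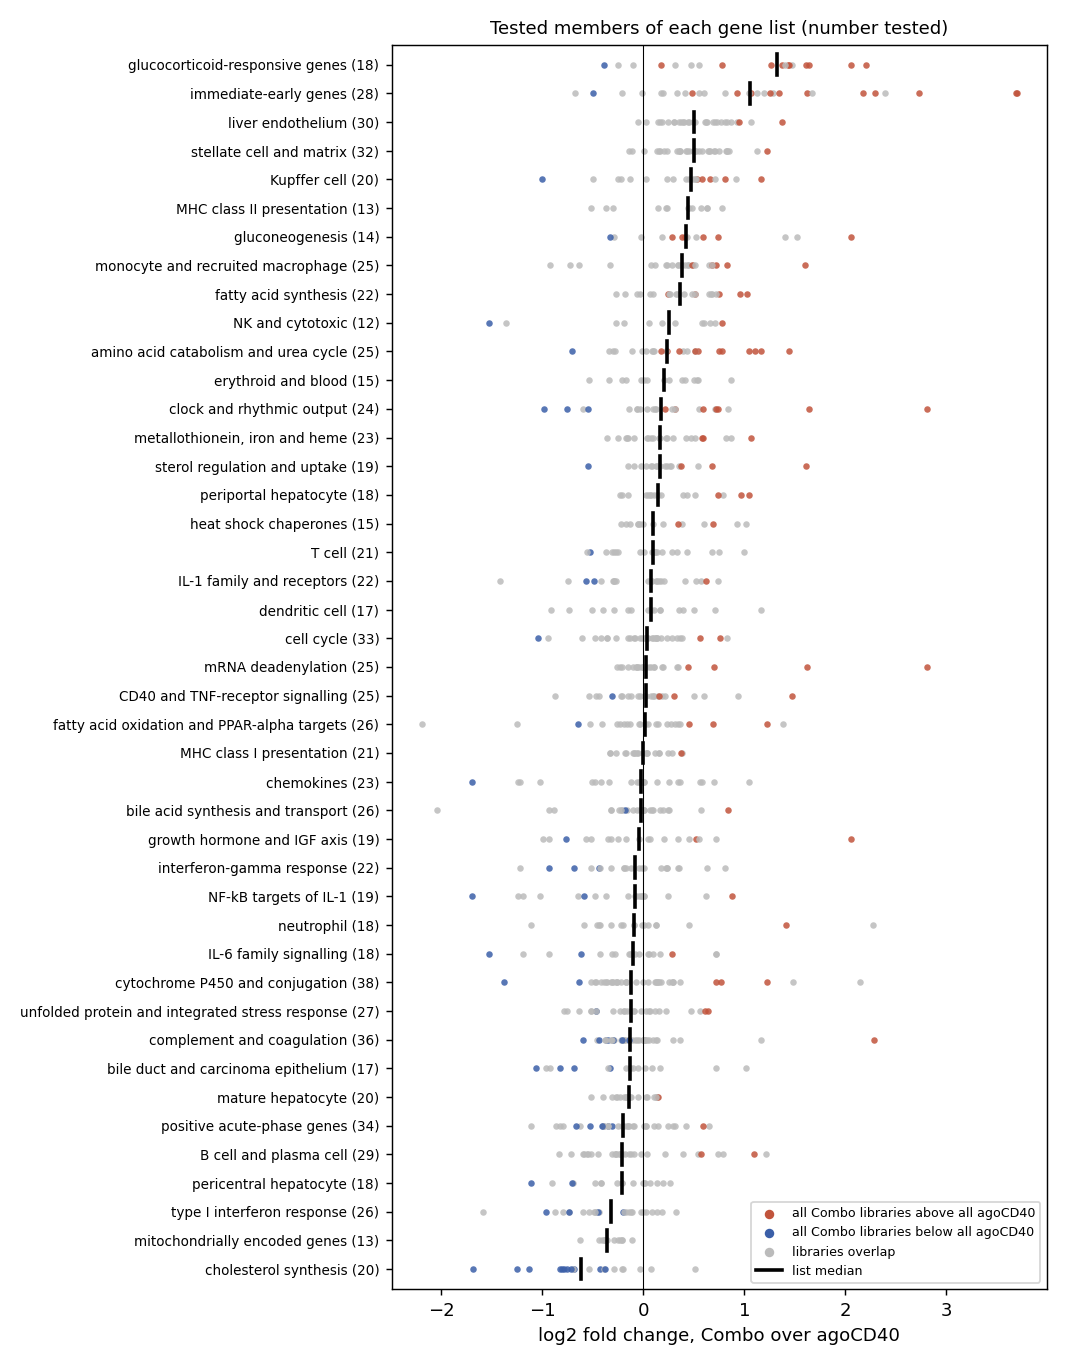
Log2 fold change of Combo over agoCD40 for every tested member of each gene list but those of exocrine pancreas and sex-linked genes, ordered by the list median (black bar); red and blue mark members whose libraries do not overlap between the groups. Glucocorticoid-responsive genes are at the top with a median of 1.32 and cholesterol synthesis at the bottom with -0.61.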

How the data were processed

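Poly(A)-selected RNA of flash-frozen mouse liver was sequenced by the authors, and titles gave the group of each library. The authors deposited expected counts, estimated per gene and not scaled between libraries. The authors also deposited TPM, scaled to a common total per library. The submitters' processing notes name the build GRCm39 and, without roles, FastQC 0.12.1, cutadapt, Trim Galore 0.6.7, STAR, SAMtools 1.16.1, Picard 3.0.0, RSEM 1.3.1, bedtools 2.30.0, StringTie 2.2.1 and DESeq2 1.28.0, and the sources used here do not say which of them counted reads. Whether counting used the strand is not given either, so overlapping and antisense genes cannot be told apart.

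Counts were rounded, and 15465 of 56748 genes were kept with filterByExpr (minimum count 10). All 12 libraries, with totals of 18681390 to 27118712, went into 1 edgeR 4.0.16 fit in R 4.3.3 with 1 mean per group and TMM scaling. Combo was compared with agoCD40 by the quasi-likelihood F test, with Benjamini-Hochberg adjustment over all genes tested and a threshold of 0.05; the biological coefficient of variation was 0.291. CPM use TMM-scaled totals, and SEs of log2 fold changes derive from the test. In counts simulated for Combo against agoCD40 on 15084 genes, the test found 97 of 100 genes with a 4-fold change and 25 of 100 with a 2-fold change, beside 4 false calls. For the interaction, on 15069 genes, it found 53 of 100 and 5 of 100, beside 2 false calls. Every simulated gene was given the same dispersion, so differences in spread between genes were left out. These shares therefore do not give the recovery in the data, where Ddit4, Atf3 and Mfsd2a differed by more than 4-fold and did not pass.

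The 45 gene lists hold 1001 distinct members, of which 1000 are in the table and 913 were tested, 57 of them in more than 1 list. Of the 87 in the table that were not tested, 27 had no count in the 6 libraries. The gene lists were chosen with earlier results of these data known. Named genes were those past the threshold, the 12 smallest p in each direction (mean of 1 CPM or more, groups not overlapping, no predicted gene and no segment of an immunoglobulin or T-cell receptor), from each list up to 4 tested members, by p, and Cd40, Il1r1, Il1a, Il1b and Il1rn. Per2, Nr1d1, Clock, Sgk1, Fkbp5, Klf9, Nr3c1, Fosb, Srebf2, Scd1 and members named only for lying without overlap were added after their values were seen, and some named genes are not reported here.

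Alternatives were RLE and total-count scaling, DESeq2 1.42.0 with 12 or 6 libraries, limma 3.58.1 on log2(TPM + 1) and log2(TPM + 0.1), no filter, a replicate block, the mitochondrial percent as a covariate, a fit of the 6 libraries, and leaving out each library. A fit without isotype 2 and antiIL1R1 2 was added after the data were seen. Promoters were read from a RefSeq table of 32851 promoters.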

Additional observations from a re-analysis of the deposited data

Results flagged for a closer look

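The difference that IL-1R1 blockade made to Ddit4 was not the same with and without the CD40 agonist, by the interaction term of the edgeR fit. Blockade alone was at -1.92 relative to isotype and blockade with the agonist at 2.21 relative to agoCD40, both on the log2 scale, so the interaction was 4.13 with an SE of 0.52 (adjusted p = 0.0422, edgeR's quasi-likelihood test). Ddit4 was lower in all 3 antiIL1R1 libraries than in any isotype library and higher in all 3 Combo libraries than in any agoCD40 library. Over the alternatives the adjusted p ranged from 8.56e-17 to 0.237.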

How the results depend on the processing

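In the comparison of Combo with agoCD40, where 1 gene passed, the count was 77 with DESeq2 on 12 libraries (55 higher and 22 lower), 161 with DESeq2 on the 6 (99 and 62), 197 without a filter on low counts (112 and 85), 11 with the mitochondrial percent as a covariate (9 and 2), 4 with the 6 libraries alone, and 0 to 7 leaving out 1 library. The interaction, also 1, had 81 with DESeq2, 232 without a filter, 3 with the mitochondrial covariate, 0 with total counts, either limma fit or without isotype 2 and antiIL1R1 2, and 0 to 13 leaving out 1 library. With the replicate block 2 genes passed in the comparison, Noct and Per1, and 0 in the interaction; same-numbered libraries of agoCD40 and Combo did not deviate together (median r = -0.0057 over 3 pairs), while those of isotype and antiIL1R1 had r of 0.40, 0.41 and 0.056, so not every pair passed 0.1 and the block was kept as an alternative. Not every library correlated best with its own number. The cause of these shifts was not tested.

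Of 2990 recomputed gene differences 2823 kept direction and side of the threshold, 152 newly passed, 7 (all of Noct) were lost, and 8 reversed. The reversals were Nr3c1 (0.084 on log2(TPM + 1) and 0.091 on log2(TPM + 0.1)), Srebf2 (0.0061 and 0.0068), Il1rn (-0.25) with the mitochondrial covariate, and, leaving out 1 library, Il1rn (-0.60 to 0.50), Nr3c1 (-0.17 to 0.011) and Il1b (-0.24 to 1.12). On log2(TPM + 0.1) the median of all genes was 0.13, above the values of Nr3c1 and Srebf2 there. The log2 fold changes of 42 of 130 named genes moved by over 1.5 times leaving out some library, and those of 37 on a TPM scale. Of 1035 list medians, 51 moved by more than the spread between libraries. Depth limits Cd40, Cd8a, Ccl2 and other genes near 1 CPM.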

Other observations

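Zonation markers of hepatocytes differed in sign between the 2 ends of the lobule. Periportal markers had a median of 0.14, with 15 of 18 above 0, 3 higher without overlap (Etnppl, Pck1 and Sds) and 0 lower. That list stood at -0.23, -0.06 and 0.27 in agoCD40 and 0.38, 0.21 and 0.08 in Combo, so the groups overlapped, and its median was 0.075 to 0.30 over the left-out libraries. Etnppl, a phospholyase of fasting liver, measured 52.6, 67.6 and 111 CPM in agoCD40 and 174, 155 and 124 CPM in Combo, a log2 fold change of 0.97 ± 0.30 (adjusted p = 0.531). Pericentral markers had a median of -0.21, with 12 of 18 below 0, 2 lower without overlap (Axin2 and Oat) and 0 higher. Axin2, a target of WNT signalling, measured 13.3, 9.03 and 8.65 CPM in agoCD40 and 2.48, 5.17 and 6.66 CPM in Combo (-1.11, adjusted p = 0.624). Combo replicate 1 was the lowest library for Axin2, and also for Tbx3, a further WNT target, at 11.2, 33.3 and 39.7 CPM in Combo against 68.5, 38.9 and 50.4 CPM in agoCD40. The pericentral list stood at -0.62, -0.19 and 0.04 in the Combo libraries and its median was -0.06 to -0.33 over the left-out libraries.

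Among enzymes of drug and bile acid metabolism, Por, the electron donor of microsomal cytochromes P450, measured 287, 239 and 383 CPM in agoCD40 and 529.8, 461 and 561 CPM in Combo, a log2 fold change of 0.77 ± 0.18 (adjusted p = 0.28). Fmo5, a flavin monooxygenase, measured 359, 456 and 495 CPM and 807, 662 and 683 CPM (0.72, adjusted p = 0.28), and Slco1a4, an uptake carrier for bile acids and drugs, 48.9, 35.1 and 54.8 CPM and 86.2, 84.7 and 77.4 CPM (0.84, adjusted p = 0.326). All 3 were without overlap, while the 38 genes of the cytochrome P450 and conjugation list had a median of -0.12 and the 26 bile acid genes -0.03, both above 0 on log2(TPM + 1), at 0.13 and 0.035. Cyp8b1, the sterol 12α-hydroxylase, lay lower, at 465, 448 and 246 CPM in agoCD40 and 147, 189 and 291 CPM in Combo (-0.89). Alas1, the first enzyme of heme synthesis, measured 283, 159.7 and 482 CPM in agoCD40 and 628, 669 and 638 CPM in Combo, so the Combo libraries were alike while the agoCD40 libraries were not (1.07, adjusted p = 0.531). Herpud1, of the unfolded protein response, measured 301, 389 and 291 CPM and 499, 503 and 529 CPM (0.64, adjusted p = 0.338), in a list of 27 with a median of -0.12, or 0.067 on log2(TPM + 1). That list value was below the median of all genes on the same scale. Ehhadh, a peroxisomal target of PPAR-alpha, and Plin2, a lipid droplet protein, lay on opposite sides of 0 in a list with a median of 0.02: Ehhadh was at 0.69 with higher and Plin2 at -0.65 with lower values in every Combo library.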
